A study of Sus scrofa with 6 samples.

Results

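GNGT1 and GNG11 are neighbouring genes of the pig that encode gamma subunits of heterotrimeric G proteins, and they are 2 of the 24 annotated genes of the chromosome 9 interval studied here. CpGs were counted for these genes where the deposited annotation placed them inside GNGT1 or GNG11, beside them, or in their promoters, and CpGs that also named the neighbours TFPI2 or CALCR were left out. This gave 1840 of the 14091 CpGs of the interval, of which 1760 belonged to GNGT1 and 80 to GNG11. Whole-genome bisulfite sequencing had been done on 3 parthenotes and 3 control embryos, all whole embryos of a cross of Landrace, Yorkshire and Duroc pigs, collected at embryonic day 21. A parthenote develops from an egg that was activated by an electric pulse, without sperm, so both of its chromosome sets are maternal, and the parthenotes were grown in surrogate gilts. Control embryos carry a maternal and a paternal set. Litters are not given in the labels, so whether embryos of 1 group are independent is unknown, and p-values measure only the spread between these embryos. A whole embryo mixes many cell types, and each level is a mean over them.

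A heterotrimeric G protein is made of an alpha, a beta and a gamma subunit and relays signals from receptors in the cell membrane. The gamma subunit binds the beta subunit tightly and carries a lipid that holds the pair at the membrane. GNGT1 encodes the gamma subunit of transducin in rod photoreceptors, where it serves vision. GNG11 encodes a gamma subunit found in many tissues. In mammals, CpG-dense gene starts are usually unmethylated and gene bodies are usually methylated. The comparison with parthenotes bears on whether methylation of a stretch depends on the parent that passed it on. Parthenotes also came from eggs activated by a pulse and grew in surrogate gilts, and levels were not read per parental copy. Effects of these and of parental origin cannot be told apart here.

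In the RefSeq annotation of Sscrofa11.1, GNGT1 (gene ID 100519790) covers 73403647 to 73717746 on chromosome 9, a length of 314100 bp, and GNG11 (gene ID 100522202) covers 73721327 to 73726229, a length of 4903 bp. Both are read from low to high coordinates, and 3581 bp lie between them. CALCR, which encodes the calcitonin receptor, ends 131 bp before the GNGT1 start and is read in the opposite direction, so these 2 genes start beside each other. TFPI2, which encodes a protease inhibitor, lies inside the GNGT1 span at 73684236 to 73694663, and 64 CpGs that named both genes were left out. A long noncoding RNA gene, LOC106504955, covers 73706883 to 73758820 and overlaps the 3′ end of GNGT1 and all of GNG11. All 46 CpGs of the deposited GNGT1 promoter also named CALCR. They are therefore not among the 1760 GNGT1 CpGs, and their level is given as that of a stretch shared by GNGT1 and CALCR. A further 55 GNGT1 CpGs lie in the deposited CALCR promoter.

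The reads that informed a CpG numbered 380163 to 406443 per embryo over the interval and 48454 to 53908 per embryo over the CpGs of GNGT1 and GNG11, and the median CpG of these genes had 26 to 29 reads. A level is the percentage of methylated reads among all informative reads of a stretch, with both strands summed. The library labelled control 1 stood apart from the others. Its mean level over the interval was 75.2%, against 83.2 to 85.6% in parthenotes and 83.2 to 85.4% in the other control embryos. For gene parts and for the flanks of the intronic run, group differences that changed by over 1.5 times or turned direction without it are therefore given again without it, and its part in them beyond that was not tested. With 3 embryos in each group, an exact permutation test of a single level cannot give a p under 0.1.

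The gene starts held the lowest levels, and they were low in parthenotes and in controls. The first exon of GNGT1, which the deposited tables annotate as 5′ untranslated sequence, held 48 CpGs over 73403656 to 73404731. Its level was 2.32%, 0.75% and 1.56% in the parthenotes, and 1.32%, 1.07% and 1.30% in the controls, on 819 to 982 reads per embryo. The parthenote values lay on both sides of the control values, and the means were 1.54% ± 0.78 in parthenotes and 1.23% ± 0.14 in controls (SD, n = 3 each; 2-sided exact permutation p = 0.7). For scale, 95% Wilson intervals were 1.49 to 3.59% for the highest embryo (parthenote 1) and 0.37 to 1.55% for the lowest (parthenote 2).

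The 5′ untranslated region of GNG11, with 33 CpGs over 73721336 to 73721829, had levels of 3.08%, 4.13% and 1.25% in the parthenotes, and 2.09%, 2.18% and 2.20% in the controls, on 479 to 734 reads. The parthenotes again bracketed the controls, with means of 2.82% ± 1.46 in parthenotes and 2.16% ± 0.06 in controls (SD, n = 3 each; exact permutation p = 0.5). In the first 500 bp of GNGT1, 23 CpGs averaged 0.30% ± 0.26 in parthenotes and 0.56% ± 0.04 in controls (SD, n = 3 each). Parthenote 2 had no methylated read among 254 there, which allows a level of up to 1.18%. Intervals and limits of this kind cover counting error only, since reads without molecular identifiers are not independent molecules and 1 read can cover several CpGs.

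Past the start, methylation rose over a short distance in GNGT1 and in GNG11. In GNGT1 the CpG at 1380 bp from the start was methylated at 30.5% in parthenotes and 21.9% in controls, and the next CpG with reads, at 1648 bp, at 93.0% in parthenotes and 75.9% in controls. The level was 7.27% ± 1.25 in parthenotes and 6.94% ± 0.79 in controls over 1000 to 1500 bp, and 83.0% ± 0.49 in parthenotes and 78.1% ± 6.62 in controls over 1500 to 2000 bp (SD, n = 3 each). Over 1500 to 2000 bp control 1 had 70.4%, and controls 2 and 3 had 81.9% each. In GNG11 the low stretch was shorter. The CpG at 612 bp stood at 22.1% in parthenotes and 24.8% in controls, and that at 1077 bp at 84.4% in parthenotes and 79.8% in controls. The CpGs at 784, 866 and 889 bp lay between, with 17.1%, 62.5% and 34.5% in parthenotes and 6.67%, 62.1% and 34.1% in controls. The CpG at 784 bp had only 5 to 11 reads per embryo and carried the variant sign that is defined with the single CpGs. At 866 bp the single embryos spread from 52.4 to 78.9% in parthenotes and from 30.0 to 85.7% in controls, so the 2 groups overlapped fully at this edge.

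**Figure D1:**
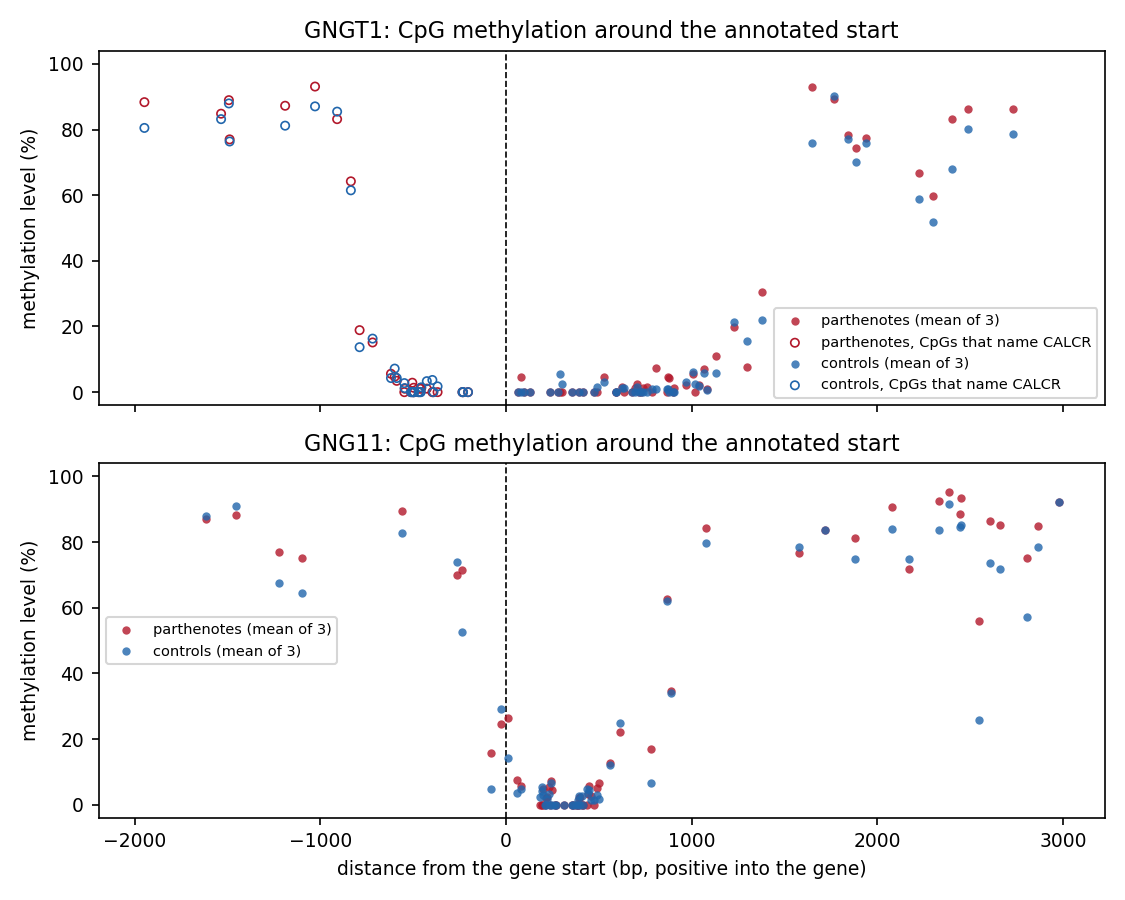
Methylation level of single CpGs (percent, mean of 3 embryos; parthenotes red, controls blue) against the distance from the annotated start of GNGT1 (top) and GNG11 (bottom); open circles are CpGs upstream of GNGT1 that name CALCR, and CpGs with under 5 reads in any embryo are left out. The low stretch covers both sides of the GNGT1 start, while in GNG11 only the 2 CpGs nearest the start are low upstream and the CpGs from -1614 to -239 bp are methylated in both groups.

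Upstream of their starts the genes differed. The shared stretch before GNGT1 was unmethylated close to the start: its 36 CpGs within 700 bp averaged 1.22% ± 0.68 in parthenotes and 1.42% ± 0.76 in controls, and the 10 farther CpGs averaged 70.1% ± 4.17 in parthenotes and 68.2% ± 6.71 in controls (SD, n = 3 each). These differences, -0.19 and 1.89 points, became 0.15 and -1.80 points without control 1. The limits, 700 bp here and 100 bp for GNG11, were set for each gene, so the contrast between near and farther CpGs depends on them. The CpGs at -718 and -788 bp, counted as farther, still had 15.1% and 18.9% in parthenotes and 16.3% and 13.7% in controls. The low stretch at the GNGT1 start thus reached into the CALCR start as well. GNG11 had only 9 promoter CpGs, at -1614 to -29 bp relative to its start. The 7 CpGs from -1614 to -239 bp had group means of 69.9 to 89.6% in parthenotes and 52.6 to 91.1% in controls. The last 2, at -78 and -29 bp, were low, at 20.4% ± 3.29 in parthenotes and 16.3% ± 7.10 in controls (SD, n = 3 each, 24 to 53 reads), a difference of 4.11 points that became 0.22 points without control 1. Of 17 promoters measured in the interval, that of GNG11 ranked 7 from the most methylated and that of GNGT1 ranked 16.

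The whole GNG11 promoter had levels of 72.9%, 67.5% and 74.4% in the parthenotes, and 64.2%, 71.4% and 63.7% in the controls, so the groups overlapped. The means were 71.6% ± 3.65 in parthenotes and 66.4% ± 4.29 in controls (SD, n = 3 each; edgeR adjusted p = 0.718). The difference of 5.15 points was 3.08 points on the reverse strand alone, 1.26 points with a promoter from 1000 bp before to 500 bp after the start, and 2.18 points from 500 bp before to 250 bp after. The GNGT1 promoter averaged 30.6% ± 4.32 in parthenotes and 30.5% ± 2.84 in controls (SD, n = 3 each; edgeR adjusted p = 0.996), and its difference of 0.090 points became -1.53 points without control 1. The GNGT1 mean joins the unmethylated and the methylated portion described above.

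Within the same embryos the GNGT1 promoter lay below the GNG11 promoter in 6 of 6. Over all embryos the levels were 30.5% ± 3.27 for GNGT1 and 69.0% ± 4.54 for GNG11 (SD, n = 6 each), a difference of -38.5 percentage points ± 4.63 (2-sided exact sign-flip test, adjusted over promoter, exon and intron comparisons, p = 0.031, the smallest that 6 embryos can give). The size of that difference rested on where the promoter was drawn. With a promoter from 1000 bp before to 500 bp after the start, the levels were 9.26% ± 1.47 for GNGT1 and 12.3% ± 1.53 for GNG11, a difference of -3.02 points. From 500 bp before to 250 bp after, they were 0.52% ± 0.34 for GNGT1 and 18.5% ± 3.10 for GNG11, a difference of -18.0 points. GNGT1 was the lower gene in 6 of 6 embryos under each of these definitions. The difference between the genes averaged -41.0 points ± 4.66 in parthenotes and -36.0 points ± 3.54 in controls (SD, n = 3 each; exact permutation p = 0.2). That group difference, -5.06 points, was -2.42 points without parthenote 1, -3.09 points without control 3, -1.53 points with the promoter of 1000 and 500 bp and -2.17 points with that of 500 and 250 bp.

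Away from its start, the CpGs counted for GNGT1 were highly methylated, apart from a short intronic run given after the group tests. The introns of TFPI2, which lie inside the GNGT1 span and were left out, averaged 62.6% over 64 CpGs and all embryos. The 1683 intronic CpGs counted for GNGT1 had levels of 83.7%, 85.2% and 86.7% in the parthenotes, and 74.1%, 87.1% and 83.6% in the controls. Control 1 was the lowest embryo, and control 2 the highest. The means were 85.2% ± 1.47 in parthenotes and 81.6% ± 6.75 in controls (SD, n = 3 each; edgeR adjusted p = 0.725), and the difference of 3.59 points became -0.17 points without control 1. Of the 1513 intronic CpGs with at least 10 reads in every embryo, 75.2% had a mean level of 80% or more, and 12 had one under 20%. From 2000 bp to the end of the gene, 8 consecutive stretches averaged 81.9 to 89.0% in parthenotes and 78.3 to 85.2% in controls, and control 1 was lowest in each of them.

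**Figure D2:**
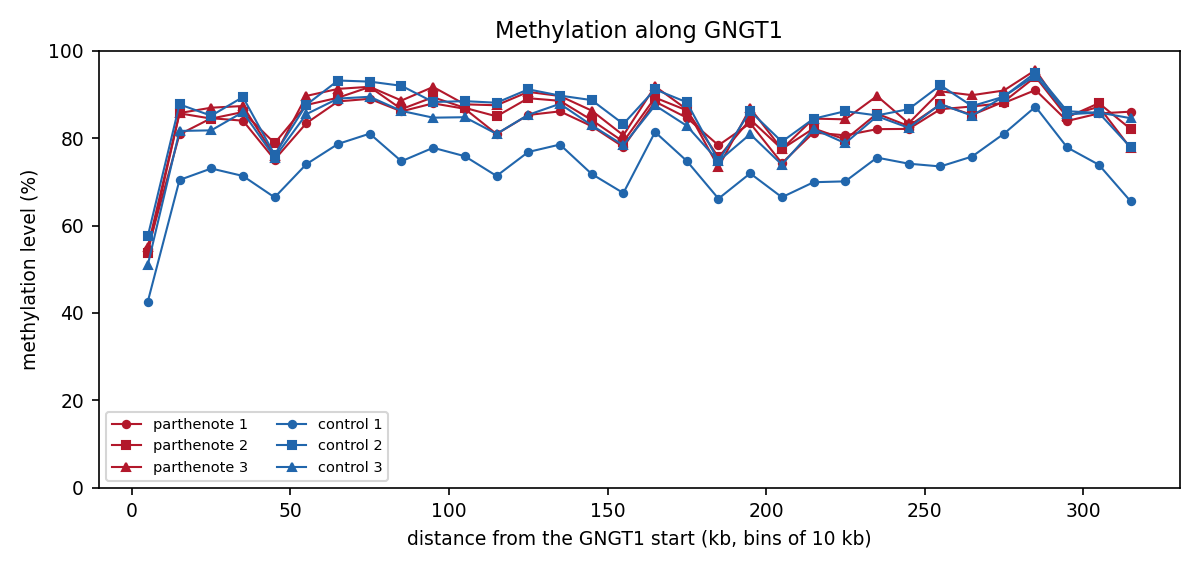
Methylation level along GNGT1 in consecutive bins of 10 kb (percent; 1 line per embryo, parthenotes red, controls blue) against the distance from the gene start in kb. After the first bin, which holds the unmethylated start, 5 of the 6 embryos run together and control 1 runs below them. CpGs that also name TFPI2 are left out.

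The 26 intronic CpGs of GNG11 had levels of 74.8%, 81.4% and 84.7% in the parthenotes, and 63.8%, 84.5% and 77.6% in the controls. The means were 80.3% ± 5.04 in parthenotes and 75.3% ± 10.5 in controls (SD, n = 3 each; edgeR adjusted p = 0.724). The difference of 4.99 points became -0.77 points without control 1. Within embryos, GNGT1 introns were more methylated than GNG11 introns in 6 of 6, by 5.60 points ± 3.42 (exact sign-flip adjusted p = 0.031). Once CpGs with the variant sign that is defined with the single CpGs were left out, the difference was 4.48 points and its adjusted p 0.0625. It averaged 4.90 points ± 3.60 in parthenotes and 6.30 points ± 3.85 in controls (SD, n = 3 each; exact permutation p = 0.6). Both intron sets include CpGs at the edge of the low start. In GNG11 these are the CpGs at 784, 866 and 889 bp, which weigh more among 26 CpGs than the edge of GNGT1 does among 1683. The difference without the edge CpGs was not computed.

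Set against the 5778 intronic CpGs of the other genes of the interval, which averaged 83.7% ± 3.69 (SD, n = 6), GNGT1 introns differed by -0.26 points ± 1.32 and were higher in 3 of 6 embryos (exact sign-flip p = 0.656). GNG11 introns, with the CpGs at the edge of the low start included, lay lower in 6 of 6 embryos. The mean difference was -5.87 points ± 4.68 (SD, n = 6). Adjusted over the 2 genes, the exact sign-flip p was 0.0625, which does not pass the threshold of 0.05. Among 15 genes ranked by intron level, GNGT1 came 6 and GNG11 came 10.

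Past the first exon, levels were high in GNGT1 and in the 3′ untranslated region of GNG11. The inner 5′ untranslated exons of GNGT1 held 6 CpGs between 73529591 and 73703794. Their levels were 88.1%, 91.3% and 93.2% in the parthenotes, and 84.7%, 91.9% and 91.7% in the controls, and the difference between the group means, 1.42 points, became -0.95 points without control 1. The single coding CpG of GNGT1 counted as exonic, at 73715238, stood at 88.6% ± 11 in parthenotes and 85.2% ± 13.5 in controls on 19 to 27 reads, a difference of 3.43 points that became -2.32 points without control 1. The 3 coding CpGs of GNG11, of which 2 lie at 563 and 612 bp in the low stretch of its start, had 39.3%, 34.4% and 32.7% in the parthenotes and 28.2%, 41.5% and 28.4% in the controls. The groups overlapped, with means of 35.5% ± 3.44 in parthenotes and 32.7% ± 7.66 in controls (SD, n = 3 each), and the difference of 2.80 points became 0.54 points without control 1. The 18 CpGs of the GNGT1 3′ untranslated region averaged 83.8% ± 4.66 in parthenotes and 77.4% ± 8.70 in controls (SD, n = 3 each), a difference of 6.44 points that became 1.86 points without control 1. The 4 CpGs of the GNG11 3′ untranslated region had 90.6%, 86.7% and 88.2% in the parthenotes and 75.4%, 86.4% and 85.0% in the controls. There the groups did not overlap (exact permutation p = 0.1, the smallest possible), although parthenote 2 and control 2 were close. The means were 88.5% ± 1.99 in parthenotes and 82.2% ± 5.97 in controls (SD, n = 3 each), a difference of 6.27 points that became 2.85 points without control 1.

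All exonic CpGs together averaged 38.4% ± 1.19 in parthenotes and 33.5% ± 4.14 in controls for GNGT1, and 21.9% ± 3.01 in parthenotes and 18.1% ± 2.07 in controls for GNG11 (SD, n = 3 each; edgeR adjusted p = 0.718 for each gene). The GNGT1 exons had 39.5%, 38.4% and 37.2% in the parthenotes and 28.9%, 35.0% and 36.7% in the controls, without overlap between groups (exact permutation p = 0.1). Their difference of 4.82 points was 2.48 points without control 1 and 1.86 points as an unweighted mean over CpGs. The difference of 3.77 points in GNG11 exons was 2.12 points without parthenote 2 and 1.34 points as an unweighted mean. In 6 of 6 embryos GNGT1 exons lay above GNG11 exons, by 15.9 points ± 3.82 (SD, n = 6; exact sign-flip adjusted p = 0.031). These sets mix unmethylated and methylated CpGs in different shares: 48 of the 73 exonic CpGs of GNGT1 are in its first exon, and 33 of the 40 of GNG11 are in its 5′ untranslated region.

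**Figure D3:**
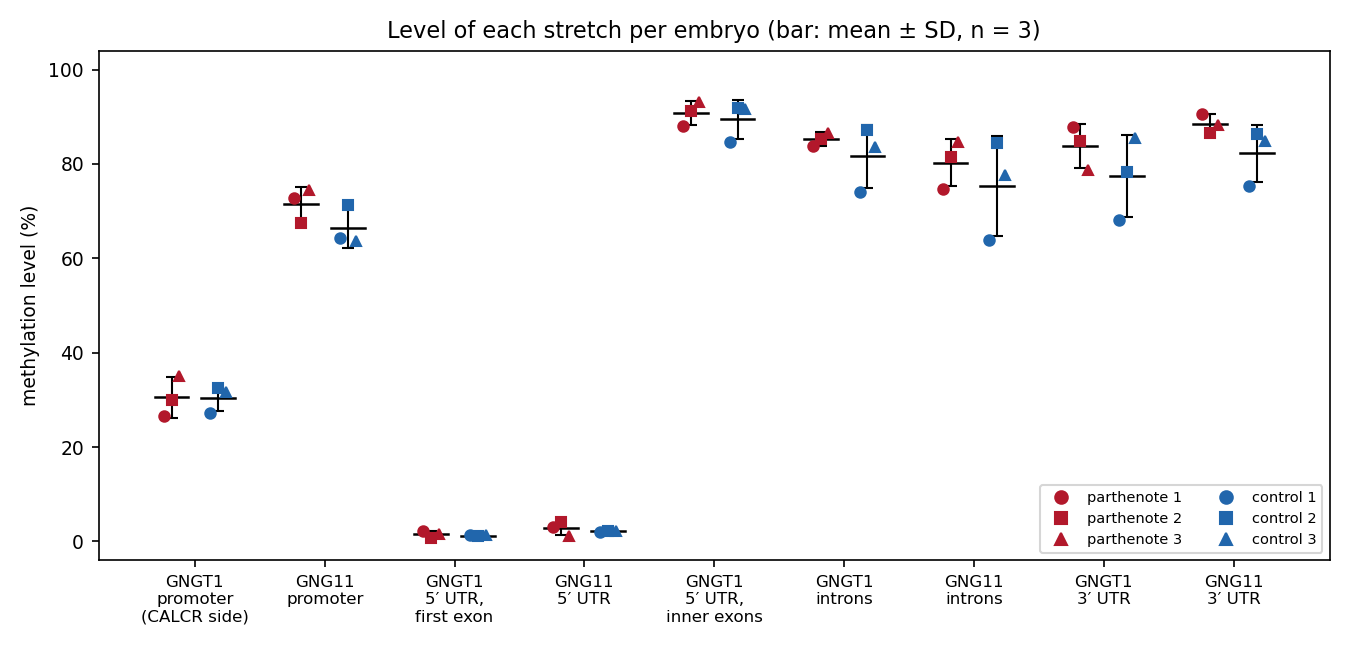
Methylation level (percent) of each stretch in each embryo, with parthenotes (red) left of controls (blue), symbols for embryos 1 to 3 and black bars for the mean ± SD (n = 3). The gene starts lie under 5%, introns and 3′ untranslated regions above 60%, and control 1 is the lowest embryo in the introns and 3′ untranslated regions of GNGT1 and GNG11.

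Across promoters, exons and introns, 0 of the 6 sets of GNGT1 and GNG11 were called between groups by edgeR at an adjusted p under 0.05, against 6.25% of the 48 sets tested over the interval. The count at an unadjusted p under 0.05 was also 0, and limma and DESeq2 called 0 and 0. Adjusted p-values ran from 0.718 to 0.996. These tests do not show that the groups are alike: the intron difference was -0.17 points without control 1 and 6.34 points without control 2 in GNGT1, and -0.77 and 9.59 points in GNG11 with the same embryos left out. For CALCR, the only receptor of the G protein-coupled kind in the interval, the levels were 30.1% ± 3.36 in parthenotes and 31.2% ± 1.84 in controls at the promoter, with an edgeR adjusted p of 0.858. Its introns averaged 83.5% ± 1.24 in parthenotes and 80.6% ± 6.89 in controls (SD, n = 3 each; edgeR adjusted p = 0.772), and its exons had an adjusted p of 0.966. The CALCR differences of -1.13, -0.17 and 2.90 points at promoter, exons and introns became -2.16, -3.07 and -1.03 points without control 1.

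An unmethylated stretch lay inside a GNGT1 intron, far from any annotated start of the gene. It was found after the values were seen, as the longest run of intronic CpGs, at least 2000 bp from the start, with under 50% in all 6 embryos. The run held 11 CpGs over 447 bp, from 73447435 to 73447881, which is 43788 to 44234 bp into the gene. Among the CpGs counted for GNGT1, which leave out those that also name TFPI2, the next longest run had 1 CpG. Levels in the run were 9.88%, 5.21% and 6.90% in the parthenotes, and 5.48%, 6.01% and 5.99% in the controls, on 217 to 377 reads per embryo. The means were 7.33% ± 2.36 in parthenotes and 5.83% ± 0.30 in controls (SD, n = 3 each), so the parthenotes lay on both sides of the controls.

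Within the run, 10 of the 11 CpGs were under 20% in every embryo. The exception, at 73447567, had 34.9%, 37.1% and 33.3% in the parthenotes, and 30.4%, 36.4% and 47.8% in the controls. At 3 CpGs no methylated read was seen in any embryo, which over 144 to 200 reads allows levels of up to 1.5 to 2.08%. The DNA on either side was methylated: CpGs within 1000 bp before the run averaged 89.6% ± 2.81 in parthenotes and 84.0% ± 5.44 in controls, and those within 1000 bp after it averaged 86.7% ± 3.07 in parthenotes and 78.3% ± 3.28 in controls (SD, n = 3 each). The difference before the run, 5.61 points, became 2.77 points without control 1. None of the 11 CpGs carried the variant sign.

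**Figure D4:**
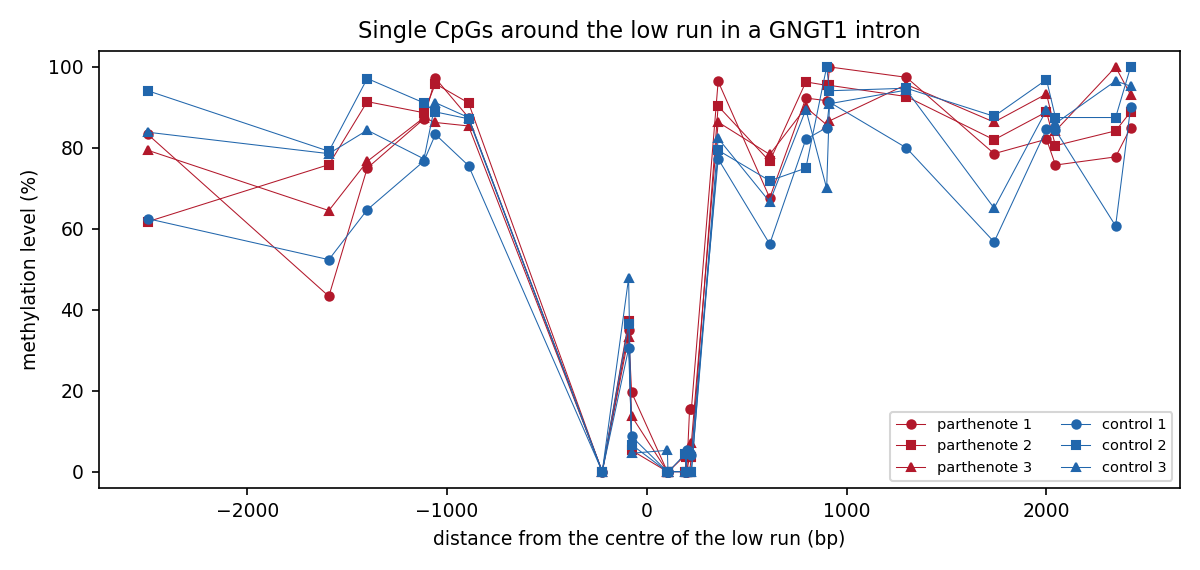
Methylation level of single CpGs (percent; 1 line per embryo, parthenotes red, controls blue) around the low run in the GNGT1 intron, against the distance from the centre of the run in bp. All 6 embryos fall together inside the run, with 1 CpG near 35% in each group, and stay above 40% at the CpGs outside it.

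In windows of 500 bp, 5 of the 225 windows of GNGT1 and GNG11 (2.22%) were under 15% in all 6 embryos, against 1.41% of the 1911 windows of the interval. Of the 5, 3 made up the GNGT1 start, 1 held the intronic run and 1 the GNG11 start. No window of these genes was called between groups (0 of 225 with edgeR, against 0.314% over the interval), limma and DESeq2 called 0 and 0, and 5 reached an unadjusted p under 0.05 in edgeR, all higher in parthenotes. That is 2.22% of the windows, against 2.46% over the interval. In 189 of the 225 windows the mean of the parthenotes exceeded that of the controls. It exceeded the mean of controls 2 and 3 in 98, and control 1 was the lowest embryo in 183.

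The window with the largest difference, from 73424500 to 73424999 in a GNGT1 intron, had 81.2%, 78.5% and 82.0% in the parthenotes, and 64.1%, 54.2% and 36.9% in the controls. The groups did not overlap, with means of 80.6% ± 1.83 in parthenotes and 51.7% ± 13.8 in controls (SD, n = 3 each; edgeR adjusted p = 0.479). One of its 3 CpGs carried the variant sign, and the other 2 averaged 76.6% ± 2.16 in parthenotes and 61.8% ± 15.9 in controls. The windows starting at 73423000 and 73432000 followed, with 69.6% ± 6.74 in parthenotes and 51.4% ± 10.7 in controls for the first, and 86.2% ± 0.28 in parthenotes and 70.2% ± 12.4 in controls for the second (SD, n = 3 each; edgeR adjusted p = 0.995 for both). Each also held 1 CpG with the sign, and the remaining CpGs averaged 74.0% ± 9.03 in parthenotes and 56.2% ± 7.83 in controls for the first, and 85.2% ± 1.04 in parthenotes and 76.3% ± 9.74 in controls for the second.

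CpGs were closely spaced at the gene starts, with a median distance to the nearest CpG of 9 bp in the first exon of GNGT1 and 6 bp in the 5′ untranslated region of GNG11. The median was 35 bp in GNGT1 introns and 51 bp in GNG11 introns, and 20 bp and 13 bp in the methylated 3′ untranslated regions of GNGT1 and GNG11. Before the starts the genes differed, with 7.5 bp in the stretch shared by GNGT1 and CALCR and 123 bp in the GNG11 promoter. GNG11 thus had a CpG-dense first exon behind a promoter of scattered CpGs, while the dense stretch of GNGT1 lay on both sides of its start.

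Over all of GNG11, where most closely spaced CpGs are those of the start, the 35 CpGs with a neighbour within 20 bp averaged 15.7% ± 2.94 in parthenotes and 12.7% ± 2.61 in controls. The 12 CpGs whose nearest neighbour was more than 100 and up to 300 bp away averaged 83.4% ± 2.96 in parthenotes and 77.6% ± 5.94 in controls (SD, n = 3 each). Of these controls, control 1 had 70.8%, control 2 81.9% and control 3 80.1%. Within GNG11 introns the closest CpGs were not the lowest in the group means, but they were only 2, with as few as 15 reads in an embryo. These 2, with a neighbour within 20 bp, averaged 91.0% in parthenotes and 84.8% in controls. The 20 with the nearest at 21 to 100 bp averaged 79.1% in parthenotes and 73.7% in controls. The 4 with the nearest at more than 100 and up to 300 bp averaged 81.2% in parthenotes and 79.2% in controls. In control 3 the closest CpGs were the lowest, at 73.3%, against 75.6% and 86.7%. In GNGT1 introns the 680 CpGs with a neighbour within 20 bp averaged 89.8% ± 1.18 in parthenotes and 87.4% ± 4.31 in controls. The CpGs with none within 300 bp, 6.001% of the intronic ones, averaged 83.1% ± 2.19 in parthenotes and 78.7% ± 8.94 in controls (SD, n = 3 each). Those between, with the nearest neighbour at up to 100 bp and at up to 300 bp, had 82.8% and 82.3% in parthenotes and 79.3% and 77.5% in controls. Control 1 was the lowest embryo in each of these GNGT1 bins. Within 20 bp the controls had 82.5%, 90.6% and 89.1%, and the parthenotes 88.5%, 90.2% and 90.7%. With none within 300 bp the controls had 68.8%, 86.3% and 81.0%, and the parthenotes 81.3%, 82.5% and 85.6%.

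The near CpGs of GNGT1 introns were the more methylated in 6 of 6 embryos, by 7.70 points ± 3.29 over the isolated ones (SD, n = 6; 2-sided exact sign-flip p = 0.031, the smallest possible). The difference averaged 6.68 points in parthenotes and 8.73 points in controls (exact permutation p = 0.6). It was 9.02 points with the first 2000 bp of the gene and the low run left out. Control 1 had the largest gap, 13.7 points, and control 2 the smallest, 4.36 points. The control mean was above the parthenote mean only with control 1 included. Without that embryo the mean over all other embryos was 6.50 points, with an exact sign-flip p of 0.0625, the smallest that 5 embryos can give.

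Of the single CpGs, 5 of 1637 tested in GNGT1 and GNG11 (0.305%) were called by edgeR, against 0.429% of the 12359 tested over the interval. All 5 lay in GNGT1 introns and were higher in parthenotes, and 0 of the 70 tested CpGs of GNG11 were called, with 0 there at an unadjusted p under 0.05. Over both genes 43 CpGs reached an unadjusted p under 0.05, which is 2.63%, against 3.29% over the interval. Of these 43, 1 was lower in parthenotes. limma and DESeq2 called 4 CpGs each. The edgeR count was 9 without control 1 and 7 without control 2. It was 3 without control 3, parthenote 1 or parthenote 2, and 2 without parthenote 3.

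Each of the 5 called CpGs carried the variant sign, which can come from a difference in the DNA itself or from a missing call. That sign was given where, in at least 1 embryo, 20% or more of at least 10 reads of the opposite strand carried A in place of G, or where a strand had no call. At 73566701 the parthenotes had 100%, 95.8% and 100%, and the controls 0%, 0% and 0% (edgeR adjusted p = 6.46e-07). At 73601935 the parthenotes had 88.6%, 83.8% and 93.0%, and the controls 0%, 0% and 0% (edgeR adjusted p = 8.94e-07). At these CpGs the forward cytosine had no call in any control embryo, so the control values rest on the other strand alone. No A was read opposite their called cytosines in any embryo. Opposite the uncalled forward cytosines no counts are given for the controls, so A could not be looked for there. At the reverse cytosines of these CpGs the controls had 13 to 37 opposite-strand reads. The sign there rests on the missing calls, and the cause of these was not tested. With 11 to 29 reads, a count of 0 allows levels of up to 10.3 to 27.3% in single control embryos.

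At the other 3 called CpGs the controls spread widely. At 73499418 the levels were 95.5%, 100% and 96.6% in the parthenotes, and 88.9%, 4.17% and 26.7% in the controls (edgeR adjusted p = 0.0109). On the strand opposite its forward cytosine, A was read in 19 of 20 reads of control 2 and 9 of 14 reads of control 3, and in no read of control 1 or of any parthenote. At 73669884 the levels were 100%, 93.5% and 97.5% in the parthenotes, and 57.7%, 0% and 65.0% in the controls (edgeR adjusted p = 0.0153). Control 2 had no call on the reverse strand there, and A was read in 9 of 15 opposite reads of control 1 and in 4 of 11 of control 3. At 73424732 the levels were 89.1%, 82.4% and 85.4% in the parthenotes, and 63.8%, 0% and 26.7% in the controls (edgeR adjusted p = 0.0326). Control 2 again lacked a reverse-strand call, and control 3 had A in 9 of 18 opposite reads.

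Among the 5 largest differences were 2 CpGs that were not called. At 73566801, which is 100 bp from the called CpG at 73566701, all 3 parthenotes had 100% and the controls 90.5%, 0% and 40.0% (edgeR adjusted p = 0.0798). It also carried the variant sign: control 2 had no call on the reverse strand, and control 3 had A in 4 of 8 opposite reads. At 73499329 the levels were 91.7%, 90.9% and 90.9% in the parthenotes, and 64.7%, 6.67% and 33.3% in the controls (edgeR adjusted p = 0.142). This CpG passed the threshold, at 0.0453, when CpGs with a variant sign were left out, and was then the only called CpG of these genes. It had A in 8 of 9 opposite reads of control 2 and in 3 of 8 of control 3, just under the 10 reads the sign asks for. When the sign was read from 5 reads, a limit chosen after seeing the data, 0 CpGs of these genes were called by edgeR.

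**Figure D5:**
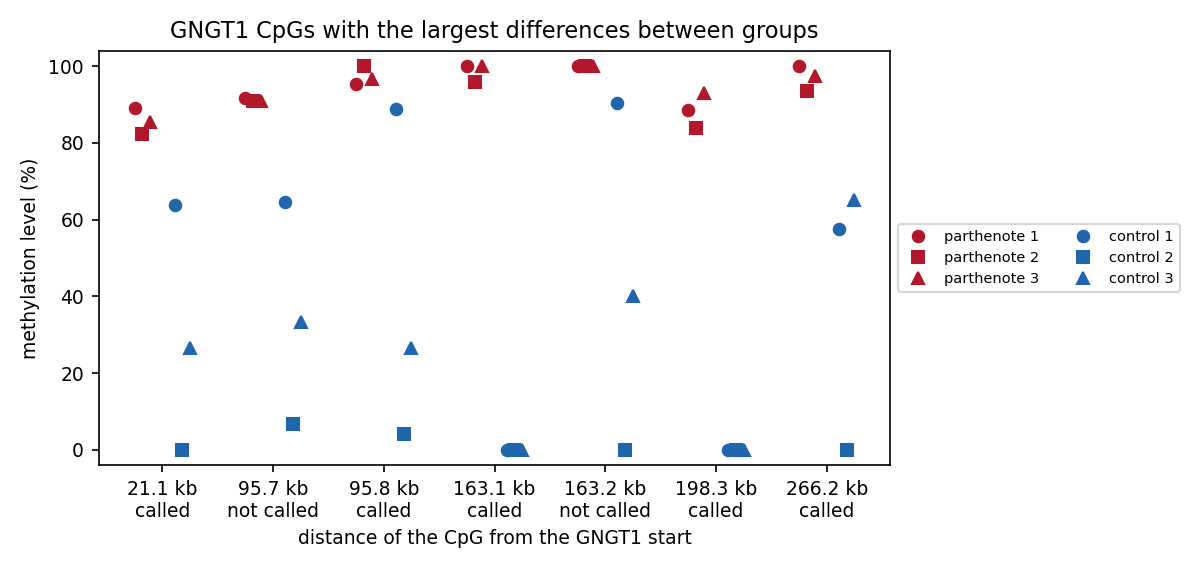
Methylation level (percent) in each embryo at the 7 GNGT1 CpGs that were called or had the 5 largest differences, ordered by distance from the gene start in kb, with parthenotes (red) left of controls (blue). The parthenotes all lie above 80%, and control 2 lies under 10% at each of the 7.

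The variant sign was unevenly spread over embryos. Of the 1840 CpGs of GNGT1 and GNG11, 5.49% carried the sign in any embryo. The number was 7, 10 and 16 in the parthenotes, and 37, 43 and 52 in the controls, so every control had more than any parthenote (11 ± 4.58 in parthenotes and 44 ± 7.55 in controls, SD, n = 3 each; exact permutation p = 0.1, the smallest possible). As a share this was 0.38 to 0.87% in parthenotes and 2.01 to 2.83% in controls, against 1.76 to 2.53% in parthenotes and 3.02 to 4.32% in controls over the whole interval. A made up 0.237%, 0.208% and 0.189% of opposite-strand reads in the parthenotes, and 0.632%, 0.285% and 0.602% in the controls (exact permutation p = 0.1). The sign also covers strands without a call, which can come from low coverage, and cytosines without a call numbered 2, 8 and 13 in the parthenotes, and 11, 39 and 27 in the controls. Among the CpGs with at least 10 reads in every embryo, the sign was seen at 5, 2 and 3 in the parthenotes, and at 26, 12 and 30 in the controls. The groups did not overlap there either.

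Wide spreads between embryos fell largely on those CpGs. Of the 1637 tested CpGs, 48 (2.93%) spanned more than 50 points from the lowest to the highest embryo, against 4.74% over the interval. Of the 50 tested CpGs with the sign, 30 spanned this widely, and of the 1587 without it, 18 did. Of these 18, 3 carried it when it was read from 5 reads. The sign and the spread are not separate measures, since T at a sequence variant counts as an unmethylated read. This split by the sign was not made over the interval.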

How the data were processed

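The deposited tables give, per the file headers, counts of reads with C and with C or T at each CpG cytosine, and counts of opposite-strand reads with G and with G or A. They also give an expected count, which the authors obtained by correcting the C-or-T count for opposite-strand A, and a methylation fraction, deposited with its confidence interval. Per the submitters' processing notes, BSMAP 2.87 and the build Sscrofa11.1 were used. Trimming and duplicate removal are not given in the sources used here. Libraries were made with a bisulfite sequencing kit, per the labels' protocols.

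Raw counts were used, with both strands of a CpG summed. Single CpGs needed 10 reads in every embryo, and 500 bp windows and gene sets needed 3 CpGs and 30 reads. Groups followed the labels. Methylated and unmethylated counts were compared in edgeR 4.0.16 (R 4.3.3) by its quasi-likelihood test, with a coverage term per embryo, and Benjamini-Hochberg adjustment ran over all sets, CpGs or windows of the interval. Calls had an adjusted p under 0.05. Tests were checked on simulated data. Single levels were compared by 2-sided exact permutation over embryos, and genes within embryos by exact sign-flip tests. limma 3.58.1 (log2 ratio of counts with 1 added), DESeq2 1.42.0, other coverage limits, strands, windows, promoters and weightings, the deposited expected count, a replicate block and leaving out each embryo were alternatives. Named were all sets of the 2 genes, CALCR, each called CpG, and the 5 CpGs and 3 windows with the largest differences. Genes, lists and tests were chosen with earlier results of these data known. No genome sequence was used here.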

Additional observations from a re-analysis of the deposited data

How the results depend on the processing

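The calls for gene sets and windows of GNGT1 and GNG11 stayed at 0 under every alternative run. For single CpGs of these genes the 5 calls became 0 on the forward strand, 3 on the reverse strand, 3 at 15 reads, 9 at 5 reads, 1 without CpGs that show a variant sign and 0 with that sign read from 5 reads, which was chosen after seeing the data; leaving out each embryo gave 2 to 9. Over the interval the 53 called CpGs became 13 on the forward strand and 25 on the reverse strand, and 25 to 64 with an embryo left out. The 6 called windows became 13 at 250 bp and 6 to 12 with an embryo left out. Same-numbered embryos did not vary together (correlations of 0.088, 0.072 and -0.089), so the numbers were not taken as pairs. With a replicate block, 80 CpGs of the interval and 8 of these genes were called, and 0 sets and 0 windows of these genes.

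The parthenote minus control difference at the GNGT1 promoter, 0.090 points, was -1.88 on the forward strand and -0.27 with a promoter of 1000 and 500 bp, and -2.20 to 2.08 with an embryo left out. With an embryo left out, the difference was -0.17 to 6.34 points in GNGT1 introns and -0.77 to 9.59 in GNG11 introns. The parthenote minus control difference in GNGT1 minus GNG11 was then -6.82 to -2.42 points for promoters, -1.47 to 3.77 for exons and -3.41 to 0.60 for introns, and GNGT1 introns minus other introns was -0.58 to 0.14. GNGT1 minus GNG11 itself was -39.8 to -36.9 points for promoters, 14.96 to 17.1 for exons and 4.67 to 6.32 for introns, and near minus isolated CpGs was 6.50 to 8.37; each kept its sign, and 5 embryos cannot give a p under 0.0625. Without CpGs that show a variant sign the intron difference between the genes was 4.48 points. Beyond fewer embryos or fewer CpGs, the cause of these changes was not tested.

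With 26 to 29 reads at the median CpG and 3 embryos in each group, small differences at single CpGs are not detectable, and the 9 CpGs of the GNG11 promoter limit its level.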
